A study of Homo sapiens with 6 samples.

Results

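The 10 genes described here encode the enzymes that make polyamines, the enzymes that break them down, and the proteins that adjust ornithine decarboxylase to the polyamine level. They were chosen by symbol in the deposited count table, which gave 10 of its 23827 genes: ODC1, AMD1, SRM and SMS for synthesis, OAZ1, OAZ2 and AZIN1 for feedback, and SAT1, SMOX and PAOX for breakdown. All 10 passed the filter on low counts and were among 15474 genes tested. Polyadenylated RNA came from A549, an established human lung adenocarcinoma line, after 24 h with lactic acid at 20 mM in the medium or after 24 h with phosphate-buffered saline (PBS) at the same volume. Each of the 2 groups held 3 libraries, labelled as biological replicates of a single cell line; whether they were separate cultures is not stated further, so p-values measure the spread between these libraries. Lactic acid adds both lactate and protons, and no arm with either alone was analysed here.

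Polyamines are small positively charged molecules that bind nucleic acids and are needed for growth. Ornithine decarboxylase makes putrescine, and aminopropyl groups from decarboxylated S-adenosylmethionine then turn it into spermidine and spermine. When polyamines accumulate, they promote a ribosomal frameshift on antizyme mRNA, and the antizyme protein inhibits ornithine decarboxylase and sends it to the proteasome. Much of this control therefore acts on translation and protein turnover, which RNA counts do not measure.

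Libraries held 33492831 to 42938870 counts in genes, and the 10 genes together took 0.140% to 0.150% of them. Of 5 epithelial markers all were counted, with a summed 2904 to 3160 CPM (counts scaled to library size with TMM factors) in PBS and 2767 to 2853 in lactic acid; KRT19 rose 1.14-fold while KRT18 fell by 13.1%, CDH1 fell by 41.4% and EPCAM fell by 50.3%. The leukocyte marker CD3E and the endothelial marker CDH5 had 0 counts in every library. The leukocyte marker PTPRC and the endothelial marker VWF had 2 counts each in all. The endothelial marker PECAM1 had 26 in all, with 5, 0 and 0 in PBS and 8, 4 and 9 in lactic acid. These low markers were not tested. CD14 reached 5.93 ± 0.896 CPM in PBS (SD, n = 3) and 5.02 ± 0.833 in lactic acid, a difference that was not called. The 3 fibroblast markers together reached 8.82 to 9.68 CPM in PBS and 5.31 to 6.75 in lactic acid, and 2 of them fell; the part of any marker in the results was not tested.

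After lactic acid, transcripts of ornithine decarboxylase, of the enzyme that supplies the aminopropyl donor, of spermidine synthase and of the antizyme inhibitor were lower, and those of spermine oxidase were higher. ODC1, AMD1, SRM and AZIN1 fell by 9.24% to 17.0%, and SMOX rose 1.12-fold. No change was called for SMS, OAZ1, OAZ2, SAT1 and PAOX. In bulk RNA, fewer cells with a transcript and less of it per cell cannot be told apart. Thus 1 of the 10 genes rose and 4 fell at an edgeR adjusted p under 0.05. Among all tested genes 18.7% rose and 16.7% fell, 35.4% together, with a median change of 1.22-fold among those called. These are 2892 rises and 2584 falls; on log2(FPKM + 1), with 12145 genes tested, there were 1803 rises and 2533 falls. The median log2 fold change of the 10 genes was −0.027, against 0.0024 for all tested genes. The genes were chosen with earlier results of these data known, so these counts carry no test of the pathway as a whole.

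**Figure D1:**
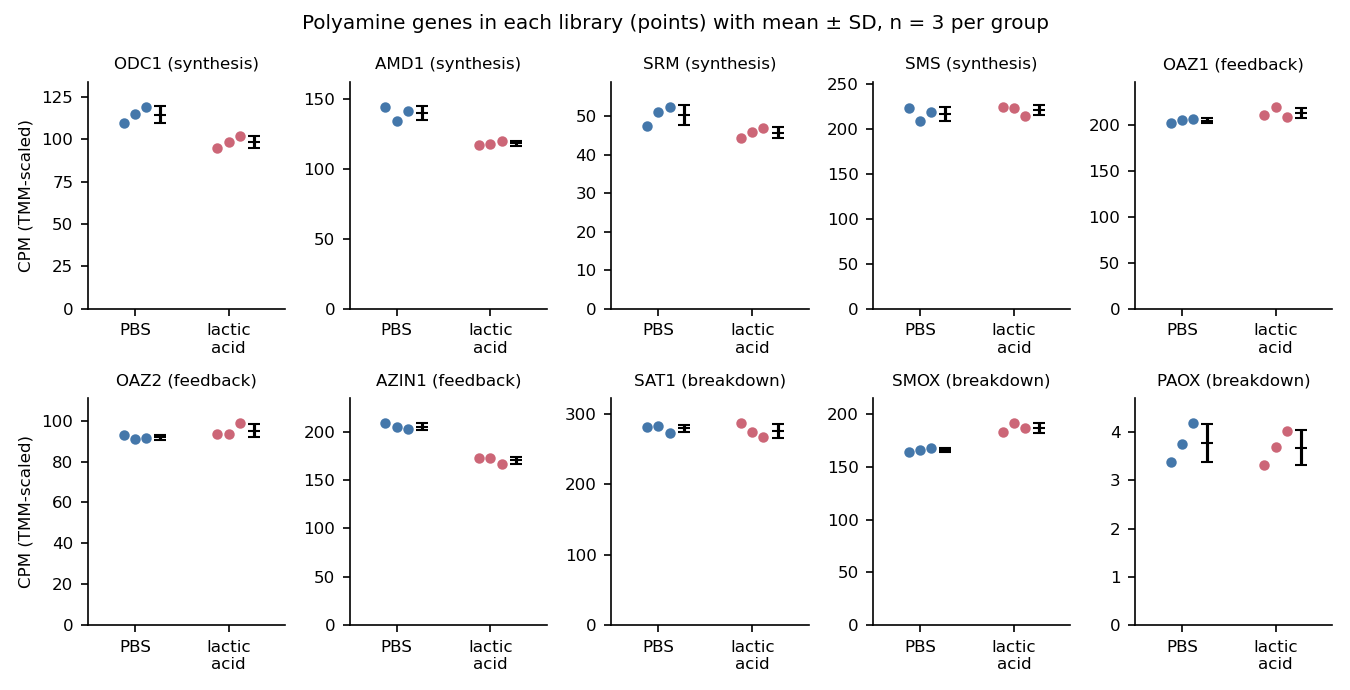
CPM after TMM scaling of each polyamine gene (linear axes from 0) in the 3 PBS libraries (blue) and the 3 lactic acid libraries (red); points are libraries and bars the mean ± SD. For ODC1, AMD1, SRM and AZIN1 every lactic acid library lies below every PBS library, and for SMOX, OAZ1 and OAZ2 above. Of all 15474 tested genes 23.1% stand apart in the first way and 24.4% in the second, 47.5% together.

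Among the synthesis genes, 3 of 4 fell and 0 rose, against 16.7% and 18.7% of all tested genes. ODC1 encodes ornithine decarboxylase, the rate-limiting first step, and lies on chromosome 2 (GRCh38, 10439968 to 10448504, minus strand). It stood at 109.6, 114.9 and 119.2 CPM in the PBS libraries and at 94.6, 98.2 and 101.7 CPM in the lactic acid libraries. The groups did not overlap, every lactic acid library being the lower, a separation that 23.1% of tested genes showed in this direction. ODC1 fell by 14.3% (log2 fold change −0.22, SE 0.043, adjusted p = 0.00178), from 115 ± 4.82 to 98.2 ± 3.54 CPM (SD, n = 3).

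AMD1 encodes S-adenosylmethionine decarboxylase, which makes the aminopropyl donor, and lies on chromosome 6 (110874770 to 110895713, plus strand). Its CPM were 144.5, 134.4 and 141.3 in PBS and 116.9, 118.0 and 120.03 in lactic acid. The lactic acid libraries were close together and all lay below the PBS libraries. AMD1 fell by 15.5% (log2 fold change −0.24, SE 0.039, adjusted p = 0.000483).

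SRM, spermidine synthase, adds the first aminopropyl group; the gene lies on chromosome 1 (11054584 to 11060024, minus strand). Its CPM were 47.5, 51.1 and 52.5 in PBS and 44.3, 45.9 and 47.1 in lactic acid. The groups stood apart only narrowly, with the highest lactic acid library just under the lowest PBS library. SRM fell by 9.24% (log2 fold change −0.14, SE 0.045, adjusted p = 0.0317). Of the 6 libraries, leaving out PBS 2, PBS 3, lactic acid 1 or lactic acid 2 ended the call (adjusted p = 0.0915, 0.120, 0.111 and 0.0678). By name, GENCODE release 29 lists 4 pseudogenes of AMD1 and 2 of SRM, and the count table has no row for any of them. Copies under other names were not searched for. How reads that match several copies were assigned is not stated.

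SMS, spermine synthase, adds the second aminopropyl group and lies on the X chromosome (21940573 to 21994835, plus strand). Its CPM were 223, 208 and 218 in PBS and 224, 223 and 214 in lactic acid, so the groups overlapped. The log2 fold change was 0.025 with a 95% interval from −0.057 to 0.11 (adjusted p = 0.649).

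The sequences in front of these genes are shown because CACGTG, the E-box bound by MYC and related factors, is known from ODC1. RefSeq promoters (GRCh38.p14) were at hand for 7 of the 10 genes, but not for AZIN1, SMOX and PAOX. The 250 bases before each listed start were searched on both strands. CACGTG was found for 2 genes, SRM and ODC1, where 6.34% of 35116 such windows in the whole table hold it. The shares given here count windows and not genes, and AMD1 had 3 windows, ODC1 2 and each other gene 1. ODC1 has 2 listed starts and carried it only before the downstream one, at 29 bases, and SRM 199 bases before its start. The shorter ACGTG, a core of hypoxia elements that every CACGTG contains on both strands, was found in addition in front of SMS, and 18.5% of windows hold it. The composite element of ATF4, TGATGNAA, and the antioxidant element core TGACNNNGC were found in 0 of the 7, where 3.14% and 10.9% of windows hold them. For SRM, AMD1 and the downstream start of ODC1, stretches outside GENCODE exons follow, 5′ to 3′ on the strand of the gene, with CACGTG in capitals. The SRM stretch is chr1:11060025-11060268 (minus), the ODC1 stretch, which is intronic in GENCODE release 29 and starts directly after an exon, is chr2:10447993-10448120 (minus), and the AMD1 stretch is chr6:110874535-110874769 (plus).
SRM: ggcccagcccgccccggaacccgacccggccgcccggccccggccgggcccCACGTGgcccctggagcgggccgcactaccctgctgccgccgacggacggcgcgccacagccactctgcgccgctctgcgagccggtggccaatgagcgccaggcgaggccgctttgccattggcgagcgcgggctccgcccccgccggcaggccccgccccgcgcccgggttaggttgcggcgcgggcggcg
ODC1: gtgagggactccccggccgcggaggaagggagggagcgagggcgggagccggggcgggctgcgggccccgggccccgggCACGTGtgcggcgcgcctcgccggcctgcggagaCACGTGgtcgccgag
AMD1: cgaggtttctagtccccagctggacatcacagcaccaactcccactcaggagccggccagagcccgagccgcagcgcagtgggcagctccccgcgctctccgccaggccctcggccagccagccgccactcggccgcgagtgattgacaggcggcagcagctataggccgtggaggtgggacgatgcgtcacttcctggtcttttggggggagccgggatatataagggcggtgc
The ODC1 stretch runs 20 bases past the searched window and holds 2 E-boxes, the last of them in those bases past the downstream listed start, the SRM stretch 1 and the AMD1 stretch 0. ODC1 and SRM fell with the motif in the bases searched, and AMD1 fell without it there. SMS, OAZ1, OAZ2 and SAT1 also lacked it there and were not called. AZIN1 and SMOX, which were called, were not searched. Binding of any factor was not measured, and a part of the motif in the changes was not tested.

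Of the feedback genes, the antizyme inhibitor fell and the antizymes were not called. AZIN1 encodes a relative of ornithine decarboxylase without its activity that binds antizyme and so spares the enzyme; it lies on chromosome 8 (102826357 to 102893864, minus strand). Its CPM were 209, 205 and 202 in PBS and 172, 173 and 166 in lactic acid. The groups were well separated, with coefficients of variation of 1.54% in PBS and 2.03% in lactic acid. AZIN1 fell by 17.0% (log2 fold change −0.27, SE 0.034, adjusted p = 9.8e-05), and its change was larger in size than that of 67.7% of tested genes. For the other called members that share was 64.2% (AMD1), 60.8% (ODC1), 49.9% (SMOX) and 42.9% (SRM). It shares 344 exonic bases with the antisense gene AZIN1-AS1, and the strand setting of the counts is not given, so reads from that stretch cannot be told apart.

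OAZ1, the main antizyme, lies on chromosome 19 (2269509 to 2273490, plus strand), and OAZ2, a second antizyme, on chromosome 15 (64687573 to 64703281, minus strand). OAZ1 stood at 202.0, 205.7 and 206.2 CPM in PBS and at 210.4, 219.7 and 208.8 CPM in lactic acid. OAZ2 stood at 93.1, 91.1 and 91.4 CPM in PBS and at 93.5, 93.4 and 98.8 CPM in lactic acid. For both genes every lactic acid library was higher, by little, a separation that 24.4% of tested genes showed in this direction. The log2 fold changes were 0.058 (95% interval −0.018 to 0.13, adjusted p = 0.219) and 0.052 (−0.029 to 0.13, adjusted p = 0.308). In FPKM (fragment counts scaled for gene length and library size) the groups overlapped for both. OAZ2 shares 554 exonic bases with the antisense gene AC100830.3, with the same limit as for AZIN1. OAZ1 shares 236 exonic bases with JSRP1 on the other strand, which had 5 counts in all. It shares 220 with AC005258.1 on its own strand, which had 0 counts.

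The frameshift site of both antizymes is printed because it is the point where polyamines act on these mRNAs, and the RNA level does not report on it. The GENCODE coding sequence of each gene skips 1 base there, the T of the stop codon TGA. The codon before the stop and the stop are in capitals, in chr19:2271416-2271470 (plus) for OAZ1 and chr15:64691488-64691542 (minus) for OAZ2, both coding.
OAZ1: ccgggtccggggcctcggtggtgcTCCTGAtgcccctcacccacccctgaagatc
OAZ2: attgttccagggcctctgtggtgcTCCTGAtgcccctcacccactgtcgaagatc
Of these 55 positions 45 are identical between the genes.

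Of the breakdown genes, SMOX rose, and SAT1 and PAOX, which serve the acetylation route, were not called. SMOX encodes spermine oxidase, which turns spermine back into spermidine and releases hydrogen peroxide; it lies on chromosome 20 (4120980 to 4187747, plus strand). Its CPM were 164, 166 and 168 in PBS and 183, 191 and 187 in lactic acid. The groups did not overlap, and every lactic acid library was higher. SMOX rose 1.12-fold, from 166 ± 2.06 to 187 ± 4.37 CPM (SD, n = 3; log2 fold change 0.17, SE 0.034, adjusted p = 0.00257). In limma-trend on log2(FPKM + 1) the log2 change was 0.10 and the call was lost (adjusted p = 0.0710).

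SAT1, the acetyltransferase that marks spermidine and spermine for oxidation or export, lies on the X chromosome (23783173 to 23786226, plus strand). Its CPM were 282, 283 and 274 in PBS and 287, 275 and 267 in lactic acid, so the groups overlapped. The log2 fold change was −0.017 with a 95% interval from −0.096 to 0.061 (adjusted p = 0.746). PAOX, the peroxisomal oxidase of acetylated polyamines, lies on chromosome 10 (133379234 to 133391694, plus strand). It had 115, 126 and 166 counts in PBS and 118, 157 and 151 in lactic acid, or 3.77 ± 0.398 and 3.68 ± 0.357 CPM (SD, n = 3). At this depth the 95% interval of its log2 fold change ran from −0.36 to 0.28 (adjusted p = 0.871), wide enough to hold a fall as large as that of AZIN1. PAOX shares 158 exonic bases with AL360181.3 on the same strand, which had 15 counts in all against 833 for PAOX.

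**Figure D2:**
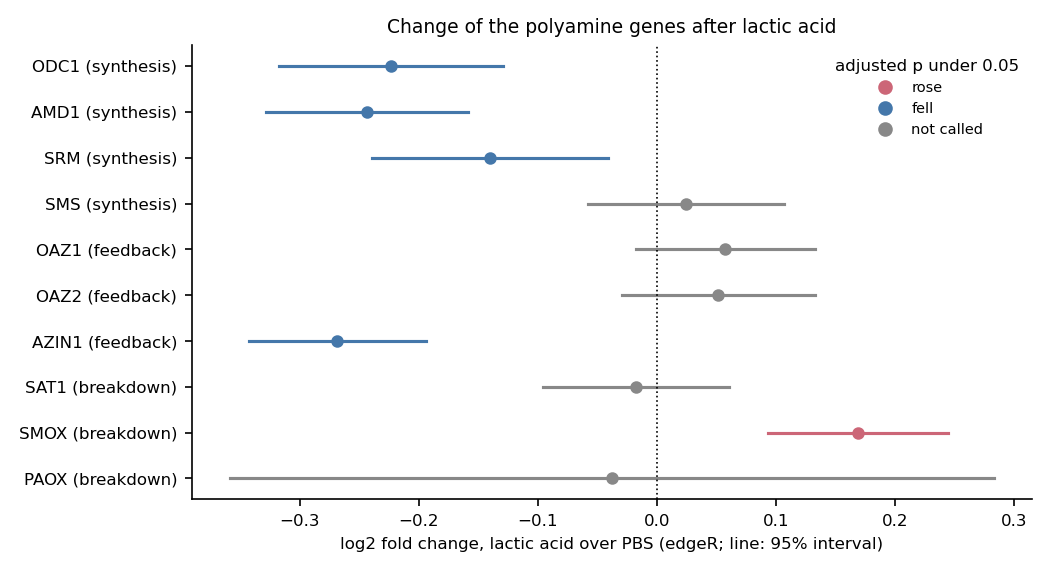
log2 fold change (lactic acid over PBS, edgeR) of the 10 polyamine genes with 95% intervals as lines; blue fell, red rose and grey was not called at an adjusted p under 0.05. The intervals of ODC1, AMD1, SRM and AZIN1 lie below 0, that of SMOX above 0, and that of PAOX is the widest, from −0.36 to 0.28.

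Per length, SAT1 and OAZ1 held the highest levels, ODC1, AMD1 and SRM lay close together below the other genes, and PAOX was far below all. In PBS the FPKM order was SAT1 (262 ± 3.53, SD, n = 3), OAZ1 (175 ± 1.15), SMS (113 ± 3.11), SMOX (71.2 ± 2.76), AZIN1 (46.3 ± 0.374), OAZ2 (46.2 ± 0.506), ODC1 (41.0 ± 2.15), AMD1 (39.1 ± 1.08), SRM (37.9 ± 2.32) and PAOX (1.97 ± 0.252). Neighbours in that order had library ranges that did not overlap, except AZIN1 with OAZ2, ODC1 with AMD1, and AMD1 with SRM. SAT1 was 133-fold above PAOX. After lactic acid the first 4 places and the last were held by the same genes. AZIN1 then stood at 37.2 ± 0.661 FPKM, below the range of OAZ2 (46.7 ± 2.02) and above that of ODC1 (34.3 ± 1.20). The ranges of ODC1, SRM (33.6 ± 0.994) and AMD1 (33.3 ± 1.87) overlapped from neighbour to neighbour.

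**Figure D3:**
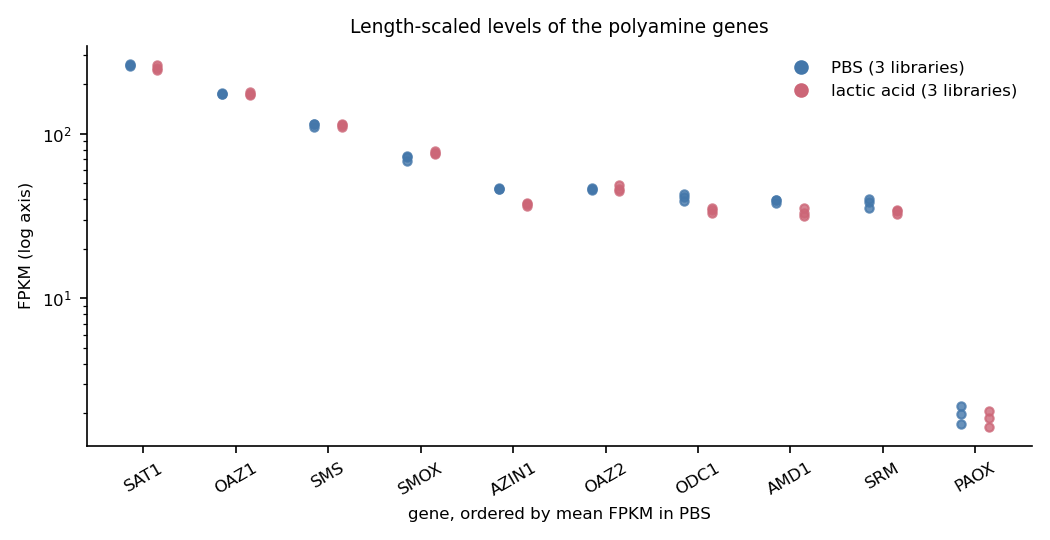
Deposited FPKM of each gene (log axis) in the 3 PBS libraries (blue) and the 3 lactic acid libraries (red), ordered by the PBS mean. SAT1 is highest at 262 FPKM in PBS and PAOX lowest at 1.97, and AZIN1 falls from the level of OAZ2 toward that of ODC1.

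Ratios of FPKM within each library set the genes against each other in 7 pairs. With 3 libraries against 3 the two-sided exact permutation test cannot give a p under 0.1, so no ratio could pass a threshold of 0.05. The ratio of ODC1 to OAZ1, enzyme to inhibitor, was 0.219, 0.236 and 0.246 in PBS and 0.190, 0.190 and 0.206 in lactic acid. The groups did not overlap, and the mean log2 ratio was lower by a difference of −0.26 (exact permutation p = 0.1, 0.35 adjusted over the 7 ratios). The ratio of SAT1 to ODC1 was 6.76, 6.46 and 6.03 in PBS and 7.94, 7.37 and 6.89 in lactic acid. The groups did not overlap, with lactic acid higher by 0.21 on the log2 scale (exact permutation p = 0.1, adjusted 0.35). Both of these ratios contain ODC1, whose fall is given above, so they are not separate observations.

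The other five ratios overlapped between groups. ODC1 to AZIN1 differed by 0.058 on the log2 scale (exact permutation p = 0.5), from 0.885 ± 0.0401 in PBS to 0.921 ± 0.0487 in lactic acid as a plain ratio (SD, n = 3). AMD1 to SRM differed by −0.059 (exact permutation p = 0.5) and OAZ1 to OAZ2 by −0.015 (exact permutation p = 0.9). SRM to SMS, the successive aminopropyl transfers, differed by −0.16, and SMOX to PAOX, both oxidases, by 0.18 (exact permutation p = 0.2 for each).

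**Figure D4:**
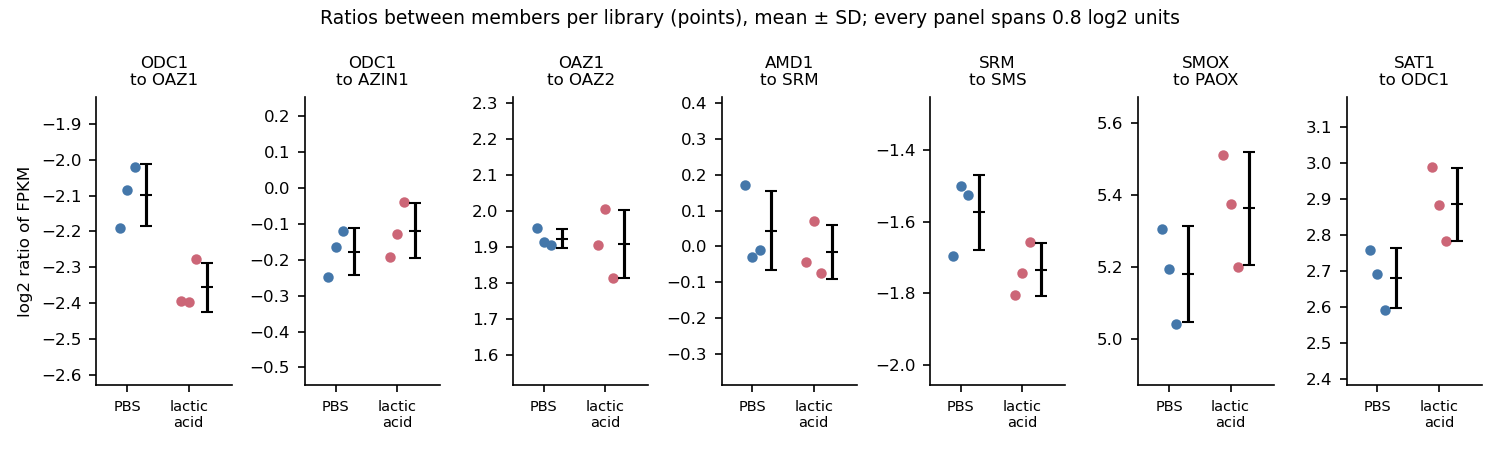
log2 ratio of FPKM between pairs of polyamine genes in each library (points) with mean ± SD (bars) for PBS (blue) and lactic acid (red); each axis spans the same number of log2 units but starts elsewhere. The groups stand apart for ODC1 to OAZ1 (difference −0.26) and SAT1 to ODC1 (0.21) and overlap in the other panels.

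Around the pathway, 7 lists of further genes held 47 genes, of which 41 were tested. In them 13 rose and 3 fell, against 18.7% and 16.7% of all tested genes, and the median log2 fold change was 0.092. For precursor supply 1 of 5 tested genes rose and 0 fell. OAT, ornithine aminotransferase, which links ornithine to proline and glutamate, rose 1.21-fold from 83.8 ± 4.67 to 101 ± 2.46 CPM (SD, n = 3; adjusted p = 0.000602). ARG1, with 13 counts in all, and MAT1A, with 38, were not tested. Neither OAZ3 nor AZIN2, the tested relatives of the antizyme system, was called.

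Synthesis of spermidine and spermine leaves methylthioadenosine, which can be salvaged to methionine. Of the 5 salvage genes 1 rose and 0 fell, against 18.7% and 16.7% of all tested genes. ADI1, the acireductone dioxygenase of that route, rose 1.57-fold from 40.0 ± 0.858 to 63.1 ± 1.10 CPM (SD, n = 3; adjusted p = 1.80e-07). MTAP, the phosphorylase that opens the route, was at 7.22 ± 0.385 and 6.63 ± 0.823 CPM (log2 fold change −0.12, adjusted p = 0.451). Whether these few reads come from an intact MTAP gene, and whether the route runs in these cells, was not tested. Spermidine is also the donor for hypusine, a modified lysine of the translation factor eIF5A. EIF5A fell by 10.2% from 580.3 ± 10.8 to 521 ± 9.12 CPM (adjusted p = 0.00136), and EIF5A2, its less abundant paralogue, rose 1.31-fold from 16.2 ± 1.17 to 21.1 ± 1.15 CPM (adjusted p = 0.00212). The near-identical copy EIF5AL1 can take or lend reads of EIF5A. The modifying enzymes DHPS and DOHH were not called. Of the breakdown relatives, SAT2, which resembles SAT1 in sequence, rose 1.40-fold (25.3 ± 0.466 to 35.4 ± 1.69 CPM, adjusted p = 1.98e-05). AOC1, diamine oxidase, had 0 counts in every library, which allows up to 0.0705 to 0.0891 CPM per library, counting error only.

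In the transport list 4 of 12 tested genes rose and 1 fell, against 18.7% and 16.7% of all tested genes. ATP13A3, a P5B-type ATPase of polyamine uptake, rose 1.34-fold from 115 ± 4.56 to 154 ± 6.13 CPM (SD, n = 3; adjusted p = 1.69e-05). ATP13A2, the lysosomal polyamine exporter of the same family, rose 1.27-fold from 51.3 ± 2.52 to 64.9 ± 1.02 CPM (adjusted p = 6.69e-05). SLC3A2, a heavy chain of amino acid transporters that has been tied to polyamine export, rose 1.35-fold (350.1 ± 4.87 to 474 ± 14.4 CPM, adjusted p = 1.38e-06). SLC7A2, a carrier of arginine and ornithine, rose 1.83-fold from 13.0 ± 2.62 to 23.8 ± 0.288 CPM (adjusted p = 0.00017). SLC22A3, an organic cation transporter, fell by 14.0% from 244 ± 5.73 to 209.6 ± 1.15 CPM (adjusted p = 0.000337). ATP13A4 and SLC22A2 were not tested, with 12 and 26 counts in all.

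The list of regulators holds the MYC and MAX network and other factors tied to ODC1 or SAT1. Of its 10 tested genes 5 rose and 1 fell, against 18.7% and 16.7% of all tested genes. MYC, a transcription factor of growth genes of which ODC1 is a textbook target, fell by 16.9% from 153 ± 1.74 to 127 ± 1.65 CPM (SD, n = 3; log2 fold change −0.27, adjusted p = 0.000104). MXD1, MNT and MXI1, which bind MAX and repress at E-boxes, rose 1.81-fold (5.85 ± 0.570 to 10.6 ± 1.05 CPM), 1.26-fold and 1.29-fold. MXD4 of the same family, which the naming rule leaves out and which was picked with its value known, rose 1.11-fold; leaving out PBS 1 or lactic acid 2 ended that call (adjusted p = 0.0553 and 0.0541). MAX and MXD3, picked in the same way, were not called. MAX was at 1.08-fold (adjusted p = 0.0885), and MXD3, of the repressor family, went from 18.7 ± 2.68 to 14.9 ± 3.65 CPM (SD, n = 3; log2 fold change −0.33, adjusted p = 0.124), so a rise was not called for every member of this family. Without lactic acid 2 the falls in this list numbered 2. NFE2L2, which encodes NRF2, a factor tied to SAT1 transcription, rose 1.17-fold. MYCN, with 17 counts in all, was not tested. A part of any of these regulators in the changes of ODC1 or the other polyamine genes was not tested either.

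**Figure D5:**
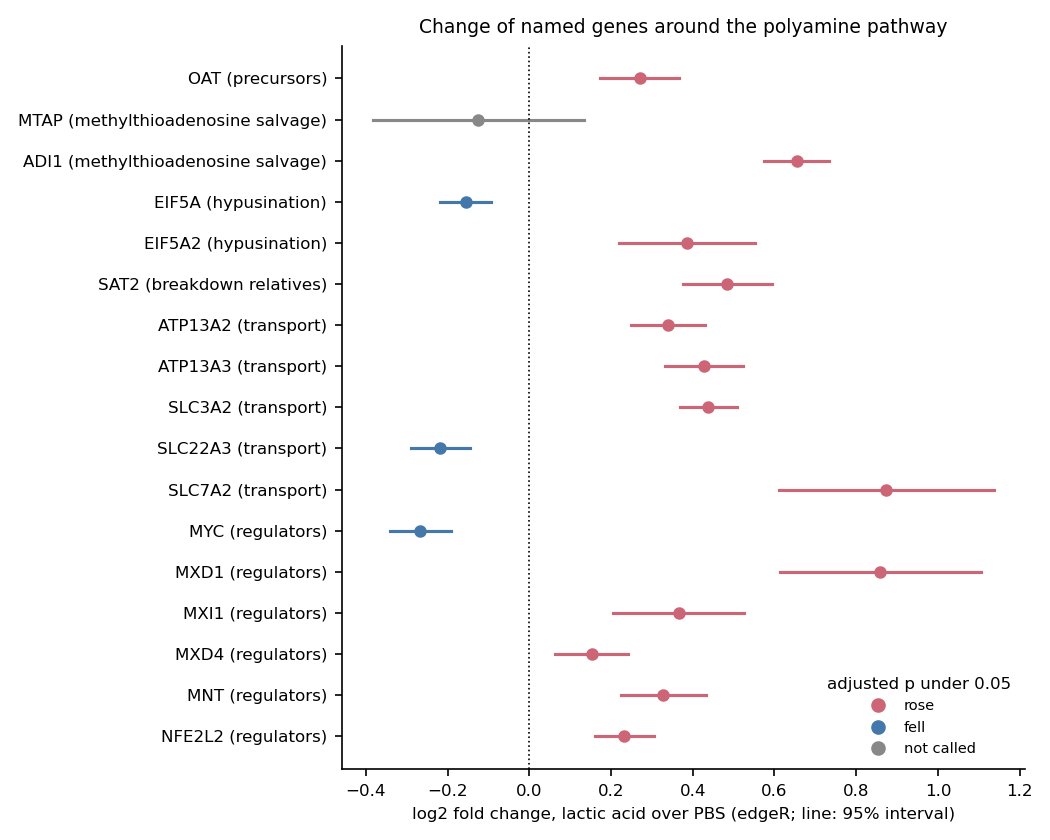
log2 fold change (lactic acid over PBS, edgeR) with 95% intervals of the named genes around the polyamine pathway, with their list in brackets; red rose, blue fell and grey was not called at an adjusted p under 0.05. SLC7A2 and MXD1 lie farthest to the right (1.83-fold and 1.81-fold), and MYC farthest to the left at −0.27.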

How the data were processed

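For 6 libraries the authors deposited gene-level tables of whole-number counts and of FPKM. Per the submitters' processing notes, HISAT2, StringTie, DESeq2 and the build GRCh38 were used; which step each served, the annotation, the strandedness and the treatment of multi-mapping reads are not stated. PBS columns are headed NS, which the labels tie to PBS by library name. All 19974 Ensembl identifiers matched GENCODE release 29; 3853 unnamed loci stayed in the fit.

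The main test was the two-sided quasi-likelihood F test of edgeR 4.0.16 (R 4.3.3) on the deposited counts, with TMM factors, group as the only term, and filterByExpr at a minimum count of 10 and total of 15. P-values were adjusted by Benjamini-Hochberg over all 15474 genes. The SE is the log2 fold change divided by the square root of F. Replicates differed by more than counting noise (chi-square per degree of freedom 6.14 to 9.08). Limma 3.58.1 and DESeq2 1.42.0 served as alternatives. The fits were tested on a single simulated data set, where 10.8% to 14.1% of calls were false, above the nominal rate for each tool. Among unchanged genes, 4.16% to 4.85% had an unadjusted p under 0.05. Of simulated 1.25-fold changes edgeR recovered 58%. For edgeR the simulation changed 50 genes at each fold from 1.25 to 2, among 15306 genes. In the data 35.4% of tested genes were called, and the false share of calls depends on how many genes change. The simulated share therefore does not carry over to these calls. Counts of calls over all genes may still hold more false calls than the threshold implies, and calls of single genes near it carry the same limit. Ratios used the deposited FPKM.

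The members and lists were chosen with earlier results of these data known. Named were all members, per list and direction the 4 called genes of lowest p (or fewer) among those averaging 1 CPM or more, every untested list gene, and MTAP, MYC and EIF5A. Protein sequences were not used here, so identities between paralogous proteins are not given. 1 gene of the regulator list and 1 of the marker lists are not reported here and are left out of the list counts; both stayed in the fit.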

Additional observations from a re-analysis of the deposited data

How the results depend on the processing

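The 7 count-based alternatives (RLE factors, library totals, DESeq2, limma-voom, no filter, 50 counts in 3 libraries, replicate block) each gave 1 rise and 4 falls among the 10 genes. On the FPKM scale 0 rose: limma-trend with log2(FPKM + 1), log2(FPKM + 0.1) and log2(FPKM + 1) without a filter lost SMOX, and the last also SRM (adjusted p = 0.0658). The cause was not tested. Over all genes these 3 fits, on 12145, 12145 and 20539 genes against 15474, gave 1803, 1798 and 1618 rises against 2892, and 2533, 2534 and 2185 falls against 2584. Rises thus outnumbered falls in the main setting but not there, nor with library totals alone (2528 and 2939). For genes that were not called, the sign turned in places. SMS was −0.013 in each of the 3 FPKM fits and −0.0081 to 0.043 with a library left out. OAZ1 was −0.0014 in each FPKM fit. SAT1 was −0.046 to 0.0016 and PAOX −0.11 to 0.041 with a library left out, and both stayed negative in the other settings. With a library left out, the falls numbered 3 or 4 and the rise 1. Correlations of deviations were 0.028, −0.026 and 0.058 between libraries of equal replicate number, and −0.073 to 0.044 between those of different number. They show no pairing by number, but so few libraries cannot exclude paired cultures. With the replicate block 2886 genes rose and 2596 fell, and 2 regulators fell against 1. Log2 differences of the 7 ratios moved by less than the SD pooled over both groups in every setting. OAZ1 to OAZ2, near 0, ran from −0.063 to 0.032 with a library left out and was 0.0059 in CPM, and AMD1 to SRM was 0.0039 without PBS 1. The depth of PAOX, 115 to 166 counts, limits its interval.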
